A study of Mus musculus with 10 samples.

Results

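The genes described here are 39 genes of the synapse whose products hold, dock and release transmitter vesicles or build the scaffold under the opposite membrane. All probes annotated to these genes on an Illumina Mouse-6 bead array were taken, and the brightest probe that stood above background on at least 2 of 10 arrays represented each gene. Transmitter receptors and ion channels were left out, although the list includes the neurotrophin receptor gene Ntrk2 and the chloride transporter gene Slc12a5, which were counted on neither side. Of the 39 genes, 38 had a probe (Shank2 had none) and 35 were measured, of 9352 genes measured in all: 19 of 21 presynaptic genes, 14 of 16 postsynaptic genes and both of the others. The single probes of Syt11 and Shank1 and both probes of Unc13a were above background on 0 arrays. Of the 35 genes, 33 were above background on all 10 arrays, Slc12a5 on 4 and Nlgn1 on 2.

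RNA came from the brain of C57/Bl6 mice aged 10 weeks, either wild type (WT) or carrying a knockout of Cd93 (KO), which encodes a transmembrane receptor found on endothelium and on myeloid cells. The study asked how expression after cerebral ischemia differs between these genotypes. Within each genotype, 1 array held untreated brain and the other arrays held tissue after middle cerebral artery occlusion, a stroke model in which the vessel is closed and then reopened. In the 48 h protocol the vessel was closed for 60 min and reperfused for 48 h, and in the 72 h protocol it was closed for 30 min and reperfused for 72 h. Each hemisphere had its own array, ipsilateral being the occluded side and contralateral the opposite one, so the groups were WT untreated, KO untreated, and WT and KO ipsilateral and contralateral tissue of each protocol, with 1 array in each of the 10 groups. The sources do not give the number of mice behind an array, nor if both hemispheres of a genotype and protocol were taken from the same animals. The labels do not describe the knockout allele or the region of the hemisphere that was taken. With 1 array per group, p-values rest on how the difference between genotypes varied over the 5 conditions of these arrays. Spread between animals was not measured.

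Chemical synapses pass signals from the presynaptic terminal of one neuron to the postsynaptic membrane of the next. In the terminal, vesicles are filled with transmitter, tethered by synapsins, docked at the active zone and fused with the membrane by SNARE proteins when a synaptotagmin senses calcium. Across the cleft, the postsynaptic density of excitatory synapses is a layered scaffold in which proteins of the Dlg family bind receptors, Dlgap proteins connect Dlg to Shank, and Homer connects Shank to metabotropic receptors, with calcium/calmodulin-dependent kinase II as its most abundant enzyme. Many presynaptic proteins are made from mRNA in the cell body, whereas several postsynaptic mRNAs, those of Camk2a, Shank, Dlgap3 and Nrgn among them, are also carried into dendrites.

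All differences are on the log2 scale of background-corrected, quantile-normalized bead intensity. A level is given as log2 intensity, WT first and KO second, and a difference as the estimate ± its standard error from 1 additive limma model of condition and genotype over all 10 arrays, in which each side of a hemisphere comparison has n = 2 arrays, 1 per genotype. The model has 4 residual degrees of freedom, and its p-values were adjusted by Benjamini-Hochberg over all 9352 genes, with 0.05 as the threshold. Levels were not compared between genes, because each probe has its own response. Between 12811 and 16310 probes of 46373 were above background per array. The Cd93 probe read lower in KO than in WT under all 5 conditions, by -1.53 ± 0.18 (adjusted p = 0.00221), although it was above background on 7 arrays, KO arrays among them, and whether it lies in the deleted part is not known.

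The promoter-proximal 250 bases before the annotated start are printed for 5 genes. Dlg4, Homer2 and Nrgn were lower in the ipsilateral hemisphere and stand for the postsynaptic side, Stx1a stands for the presynaptic genes that were lower, and Syn1 for the abundant presynaptic genes that did not pass the test. Sequences are from RefSeq on GRCm38.p6, given 5′ to 3′ on the strand of the gene, with the windows at chr11:70016953-70017202 (plus strand), chr7:81706926-81707175 (minus strand), chr9:37552746-37552995 (minus strand), chr5:135023232-135023481 (plus strand) and chrX:20920919-20921168 (minus strand), each before the outermost start in the table. Capitals mark matches, on either strand, to the cAMP response element TGACGTCA, the GC box GGGCGG, the EGR1 site GCGTGGGCG, the left part TTCAGCACC of the RE1 element bound by the neuronal repressor REST, or the E-box CAGCTG.
Dlg4: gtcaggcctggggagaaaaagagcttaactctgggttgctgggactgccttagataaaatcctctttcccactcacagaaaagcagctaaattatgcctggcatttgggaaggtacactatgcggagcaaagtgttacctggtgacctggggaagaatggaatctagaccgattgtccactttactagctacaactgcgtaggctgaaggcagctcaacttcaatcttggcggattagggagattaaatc
Homer2: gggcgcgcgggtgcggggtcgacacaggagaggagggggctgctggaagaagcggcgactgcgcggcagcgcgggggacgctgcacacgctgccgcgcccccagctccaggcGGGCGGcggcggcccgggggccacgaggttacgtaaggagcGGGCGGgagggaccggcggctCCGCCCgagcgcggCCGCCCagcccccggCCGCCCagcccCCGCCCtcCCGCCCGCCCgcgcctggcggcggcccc
Nrgn: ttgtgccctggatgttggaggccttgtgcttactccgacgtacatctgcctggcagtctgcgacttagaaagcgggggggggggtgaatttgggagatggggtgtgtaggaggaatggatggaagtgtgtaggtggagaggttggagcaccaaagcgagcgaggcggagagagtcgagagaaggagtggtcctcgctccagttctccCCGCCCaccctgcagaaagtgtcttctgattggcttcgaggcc
Stx1a: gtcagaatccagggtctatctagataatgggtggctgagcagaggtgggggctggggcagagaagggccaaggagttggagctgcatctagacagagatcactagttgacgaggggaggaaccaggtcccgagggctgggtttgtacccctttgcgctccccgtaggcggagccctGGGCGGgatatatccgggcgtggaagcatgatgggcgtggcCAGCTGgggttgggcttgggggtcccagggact
Syn1: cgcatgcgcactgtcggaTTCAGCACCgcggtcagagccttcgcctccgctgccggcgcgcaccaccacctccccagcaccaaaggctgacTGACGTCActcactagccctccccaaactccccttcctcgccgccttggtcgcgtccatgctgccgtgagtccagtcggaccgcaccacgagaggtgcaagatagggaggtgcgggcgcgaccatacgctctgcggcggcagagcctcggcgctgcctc

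The Homer2 window held 8 GC boxes, of which 2 overlapped each other, and had 83.2% G and C, whereas the Dlg4 window held none of the 5 motifs and had 47.2% G and C. Nrgn had 1 GC box, Stx1a had 1 GC box and 1 E-box, and Syn1 had a cAMP response element 159 bases before its start and the left part of RE1 232 bases before it. Windows of 18 presynaptic and 12 postsynaptic genes of the list were matched by symbol, some with several starts, which made 27 and 21 windows. A GC box was held by 13 of the 27 presynaptic windows (48.1%) and 7 of the 21 postsynaptic windows (33.3%, Dlg4 at another of its starts), against 32.7% of all 32851 windows of this length, so the postsynaptic share was near that of all windows. The E-box was held by 6 presynaptic windows (22.2%) and 4 postsynaptic windows (19%), against 13% of all windows. The cAMP response element was found in 1 presynaptic window, that of Syn1, and in 0 postsynaptic windows, against 1.55% of all windows. The EGR1 site (0.54% of all windows) was found in 1 window each of Unc13a and Shank3, and the left part of RE1 (0.3%) in 1 window each of Syn1 and Nlgn1. The windows of the presynaptic genes had a median of 56.4% G and C, those of the postsynaptic genes 55.2% and all windows 52.4%. A match describes these letters in this window only.

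Ipsilateral and contralateral tissue were compared first under the 48 h protocol. Of the 35 genes, 12 were lower in the ipsilateral hemisphere and 0 were higher, against 8.06% of all 9352 genes that were lower and 12.7% that were higher. Postsynaptic genes made up 7 of the 12 (7 of 14 measured), presynaptic genes 4 (4 of 19), and Ntrk2 was the remaining gene. The median difference was -0.38 over the postsynaptic genes and -0.27 over the presynaptic genes, beside -0.02 over all genes, and turned to 0.07 and 0.15 beside 0.43 under median centring in place of quantile normalization. Relative to the median of all genes it was then -0.36 and -0.28, close to the values of -0.36 and -0.25 under quantile normalization. Under median centring 0 of the 35 genes were lower, against 43 of all 9352, while Nrxn3 and Syt4 were higher, against 4882 of all 9352. No call is given for Nlgn1, which was above background on 2 ipsilateral arrays alone. Bulk tissue cannot tell fewer cells of a type from less RNA per cell.

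Under the 72 h protocol 8 of the 35 genes were lower ipsilaterally and 0 were higher, against 4.13% of all genes lower and 10.3% higher. Of these, 7 were postsynaptic (7 of 14) and 0 were presynaptic (0 of 19), and Slc12a5 was the remaining gene. At an unadjusted p under 0.05 by limma were 3 of the 19 presynaptic genes, against 2731 of all 9352 genes. The median was -0.40 over the postsynaptic genes and -0.13 over the presynaptic genes, beside -0.05 over all genes. Below 0 were all 14 postsynaptic estimates, 14 of the 19 presynaptic estimates and 5471 of all 9352. The postsynaptic estimates include that of Nlgn1, which was not above background at 72 h. Under median centring Dlgap3 and Shank3 alone remained lower, against 70 of all 9352 genes, with list medians of -0.32 and -0.06. Lower in both protocols were 5 postsynaptic genes (Dlg4, Dlgap3, Shank3, Camk2a and Nrgn) and 0 presynaptic genes, against 1.83% of all genes. A paired fit, described at the end, called the presynaptic gene Rims1 lower in both. The protocols share no arrays, but occlusion time and reperfusion time differ together, so what belongs to either cannot be told apart.

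**Figure D1:**
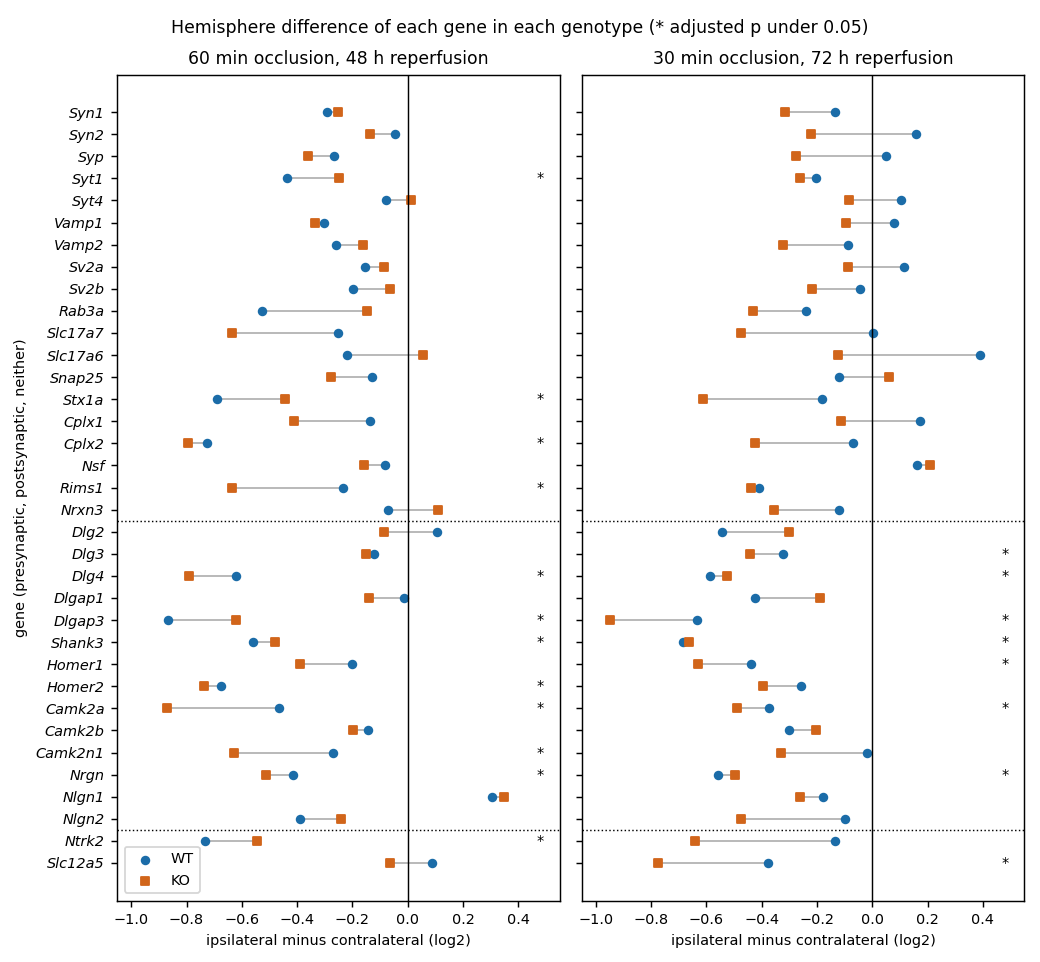
Ipsilateral minus contralateral log2 intensity of each of the 35 genes (rows) in the 48 h protocol (left) and the 72 h protocol (right), with 1 point per genotype and an asterisk where the fitted difference had an adjusted p under 0.05. At 72 h no presynaptic gene carries an asterisk and 7 postsynaptic genes do; values are after quantile normalization, and under median centring the list medians at 48 h lie above 0.

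Among the scaffold genes, the steepest difference in both protocols was that of Dlgap3, which encodes a protein that connects Dlg to Shank. Dlgap3 read 8.26 and 8.46 in untreated brain, 8.59 and 8.26 contralaterally and 7.72 and 7.64 ipsilaterally at 48 h, and 8.58 and 8.57 contralaterally and 7.94 and 7.62 ipsilaterally at 72 h. All 4 ipsilateral arrays lay below all 6 others. The difference was -0.74 ± 0.14 (adjusted p = 0.00664) at 48 h and -0.79 ± 0.14 (adjusted p = 0.00467) at 72 h. Dlg4, which encodes the best known membrane-associated guanylate kinase of the postsynaptic density, read 9.34 and 9.31 on the contralateral and 8.72 and 8.52 on the ipsilateral arrays of the 48 h protocol, 9.61 and 9.31 contralaterally and 9.02 and 8.79 ipsilaterally under the 72 h protocol, and 9.43 and 9.47 in untreated tissue. Here too the ipsilateral arrays stayed below the other arrays, with the KO array of the 48 h protocol lowest. The differences of Dlg4 were -0.71 ± 0.12 (adjusted p = 0.00342) and -0.56 ± 0.12 (adjusted p = 0.0121). Shank3, the gene of a master scaffold protein deep in the density, read 9.04 and 8.72 ipsilaterally against 9.59 and 9.20 contralaterally at 48 h, 8.95 and 8.75 against 9.64 and 9.42 at 72 h, and 9.30 and 9.37 without treatment. Its groups did not overlap either, and the differences were -0.52 ± 0.13 (adjusted p = 0.0212) at 48 h and -0.67 ± 0.13 (adjusted p = 0.00642) at 72 h.

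The Homer genes passed the test in different protocols. Homer2 read 10.22 and 10.24 in untreated brain, 10.14 and 10.04 contralaterally and 9.46 and 9.31 ipsilaterally at 48 h, and 9.84 and 9.85 contralaterally and 9.58 and 9.45 ipsilaterally at 72 h. The 4 ipsilateral arrays were the lowest, and the untreated arrays the highest. The difference was -0.71 ± 0.11 (adjusted p = 0.00196) at 48 h, which passed, and -0.33 ± 0.11 (adjusted p = 0.0735) at 72 h, which did not. Homer1 read 10.07 and 9.76 on the contralateral and 9.87 and 9.37 on the ipsilateral arrays of the 48 h protocol, 9.86 and 9.81 contralaterally and 9.42 and 9.18 ipsilaterally under the 72 h protocol, and 9.98 and 9.96 in untreated tissue. The WT ipsilateral array of the 48 h protocol lay among the contralateral arrays, whereas the other ipsilateral arrays lay below them. The difference of Homer1 was -0.29 ± 0.13 (adjusted p = 0.15) at 48 h and -0.53 ± 0.13 (adjusted p = 0.0265) at 72 h. Whether these differences changed between protocols was tested by the difference of the hemisphere differences, which was -0.38 ± 0.15 (adjusted p = 0.41) for Homer2 and 0.24 ± 0.19 (adjusted p = 0.71) for Homer1.

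Dlg3, another membrane-associated guanylate kinase, read 10.56 and 10.54 ipsilaterally against 10.69 and 10.70 contralaterally at 48 h, 10.49 and 10.24 against 10.81 and 10.69 at 72 h, and 10.92 and 10.80 without treatment. All ipsilateral arrays lay below all others, by little at 48 h, and the differences were -0.14 ± 0.11 (adjusted p = 0.41) and -0.38 ± 0.11 (adjusted p = 0.0467). Dlg2, of the same family, was at 0.01 ± 0.15 (adjusted p = 0.97) at 48 h and -0.42 ± 0.15 (adjusted p = 0.0876) at 72 h. Dlgap1, a relative of Dlgap3, read 12.79 and 12.37 in untreated brain, 12.54 and 12.61 contralaterally and 12.52 and 12.47 ipsilaterally at 48 h, and 12.73 and 12.43 contralaterally and 12.31 and 12.24 ipsilaterally at 72 h. Both ipsilateral arrays of the 72 h protocol were the lowest, and at 48 h the ipsilateral arrays lay among the others. Its brightest probe gave -0.08 ± 0.14 (adjusted p = 0.72) and -0.31 ± 0.14 (adjusted p = 0.17). In all, 4 of the 8 measured scaffold genes were lower at 48 h and 5 at 72 h, with medians of -0.41 and -0.48 (0.08 and -0.37 under median centring).

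**Figure D2:**
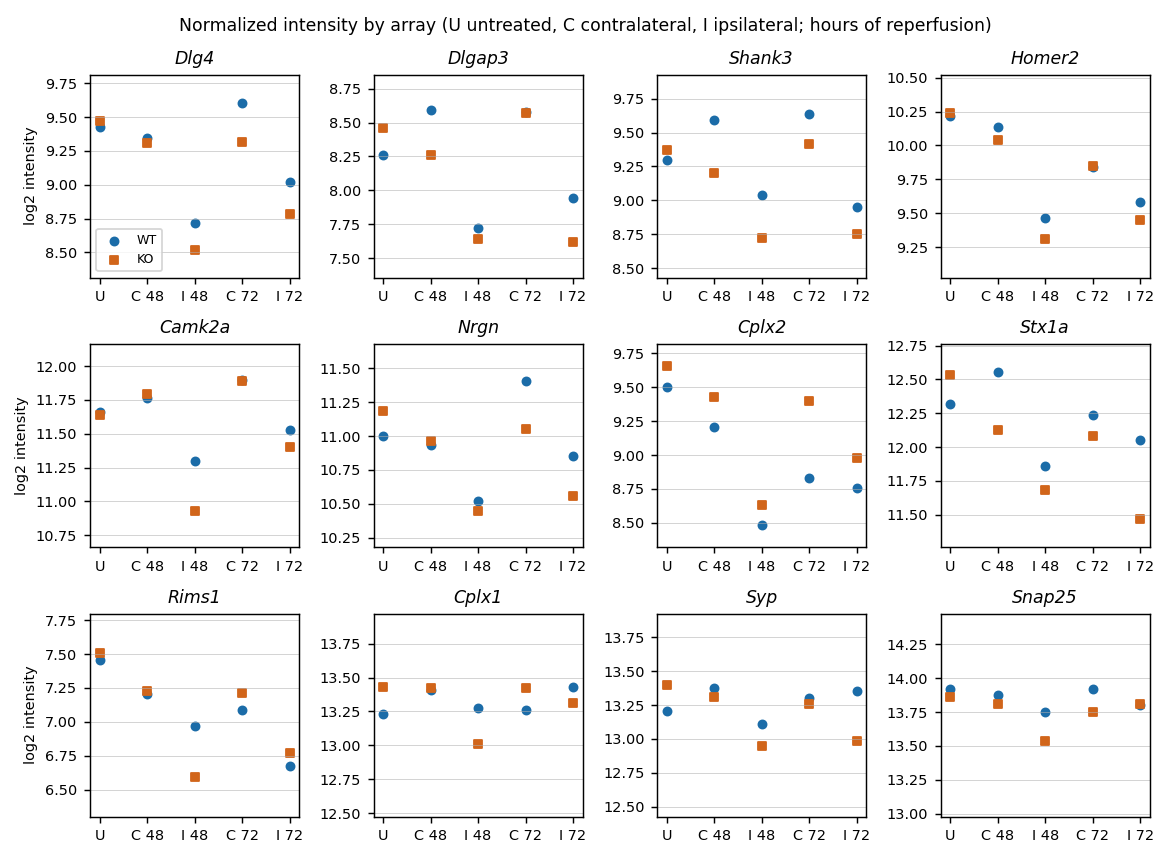
Log2 normalized intensity of 12 genes on each of the 10 arrays, untreated (U), contralateral (C) and ipsilateral (I) at 48 h or 72 h, with WT as circles and KO as squares. Each panel has its own axis of equal span. Dlg4, Dlgap3, Shank3, Homer2, Camk2a, Nrgn, Stx1a and Rims1 have all 4 ipsilateral points below the other 6, while Cplx2, Cplx1, Syp and Snap25 do not.

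Of the 4 calcium and calmodulin genes of the spine, 3 were lower at 48 h and 2 at 72 h. Camk2a encodes the alpha subunit of calcium/calmodulin-dependent kinase II, and its probe read 11.66 and 11.64 in untreated brain, 11.76 and 11.80 contralaterally and 11.30 and 10.93 ipsilaterally at 48 h, and 11.90 and 11.89 contralaterally and 11.52 and 11.40 ipsilaterally at 72 h. The ipsilateral arrays did not overlap the rest, and the KO array of the 48 h protocol stood lowest. Its differences were -0.67 ± 0.12 (adjusted p = 0.00584) and -0.43 ± 0.12 (adjusted p = 0.0462). Nrgn, whose product neurogranin binds calmodulin in dendritic spines, read 10.52 and 10.45 ipsilaterally against 10.93 and 10.96 contralaterally at 48 h, 10.85 and 10.56 against 11.41 and 11.05 at 72 h, and 10.999 and 11.18 without treatment. Groups again did not overlap, although WT ipsilateral tissue at 72 h came close to the contralateral arrays of the 48 h protocol. The differences were -0.46 ± 0.14 (adjusted p = 0.0469) and -0.53 ± 0.14 (adjusted p = 0.0356).

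Camk2n1, which encodes an inhibitor of the same kinase, was lower at 48 h only by the test. It read 12.83 and 12.93 on the contralateral and 12.55 and 12.30 on the ipsilateral arrays of the 48 h protocol, 12.88 and 12.98 contralaterally and 12.87 and 12.65 ipsilaterally under the 72 h protocol, and 12.74 and 12.81 in untreated tissue. WT ipsilateral tissue at 72 h lay among the untreated and contralateral arrays. The differences were -0.45 ± 0.13 (adjusted p = 0.0371) and -0.17 ± 0.13 (adjusted p = 0.41), and their change between protocols was -0.28 ± 0.18 (adjusted p = 0.63). Camk2b, the beta subunit, read 13.28 and 13.27 in untreated brain, 13.21 and 13.18 contralaterally and 13.07 and 12.98 ipsilaterally at 48 h, and 13.33 and 13.20 contralaterally and 13.02 and 12.99 ipsilaterally at 72 h. All 4 ipsilateral arrays were below the other 6, within a narrow range, and the differences of -0.17 ± 0.10 (adjusted p = 0.26) and -0.25 ± 0.10 (adjusted p = 0.14) did not pass.

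The adhesion genes of the postsynaptic membrane did not pass in either protocol. Nlgn2, whose neuroligin is typical of inhibitory synapses, read 9.96 and 9.99 ipsilaterally against 10.35 and 10.23 contralaterally at 48 h, 10.18 and 10.08 against 10.28 and 10.56 at 72 h, and 10.41 and 10.33 without treatment. Ipsilateral arrays were below all others, with differences of -0.32 ± 0.13 (adjusted p = 0.10) and -0.29 ± 0.13 (adjusted p = 0.16). Nlgn1, the neuroligin of excitatory synapses, read 5.75 and 5.11 in untreated brain, 5.35 and 5.11 contralaterally and 5.65 and 5.46 ipsilaterally at 48 h, and 5.60 and 5.30 contralaterally and 5.42 and 5.03 ipsilaterally at 72 h. It was above background on both ipsilateral arrays of the 48 h protocol and on 0 of the other 8, although WT untreated brain read highest. Since it was kept through those 2 arrays alone, no fold or test of Nlgn1 is given for 48 h, and none for 72 h, where no array stood above background. Without Nlgn1, 7 of 13 postsynaptic genes were lower in each protocol.

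On the presynaptic side, the genes that passed belonged mostly to the fusion machinery, and all of them passed at 48 h alone. Cplx2, which encodes a complexin that clamps and then aids the SNARE complex, read 9.51 and 9.66 in untreated brain, 9.21 and 9.43 contralaterally and 8.48 and 8.63 ipsilaterally at 48 h, and 8.83 and 9.40 contralaterally and 8.76 and 8.98 ipsilaterally at 72 h. Both ipsilateral arrays of the 48 h protocol were the lowest, and WT contralateral tissue at 72 h lay between the ipsilateral arrays of that protocol. The difference was -0.76 ± 0.13 (adjusted p = 0.00339) at 48 h and -0.25 ± 0.13 (adjusted p = 0.24) at 72 h, with a change between protocols of -0.51 ± 0.18 (adjusted p = 0.34). Stx1a, the gene of the SNARE syntaxin in the terminal membrane, read 12.55 and 12.12 on the contralateral and 11.86 and 11.68 on the ipsilateral arrays of the 48 h protocol, 12.24 and 12.08 contralaterally and 12.05 and 11.47 ipsilaterally under the 72 h protocol, and 12.32 and 12.53 in untreated tissue. The ipsilateral arrays lay below the rest, KO at 72 h lowest, and the differences were -0.57 ± 0.17 (adjusted p = 0.0434) and -0.40 ± 0.17 (adjusted p = 0.16). Rims1, a scaffold gene of the active zone, read 6.97 and 6.59 ipsilaterally against 7.20 and 7.23 contralaterally at 48 h, 6.67 and 6.77 against 7.09 and 7.21 at 72 h, and 7.46 and 7.51 without treatment. No ipsilateral array overlapped the others, and the differences of -0.44 ± 0.14 (adjusted p = 0.0498) and -0.42 ± 0.14 (adjusted p = 0.0697) were of like size on either side of the threshold.

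The other 3 genes of fusion and of the active zone did not pass. Complexin gene Cplx1 was at -0.27 ± 0.13 (adjusted p = 0.17) at 48 h and 0.03 ± 0.13 at 72 h, and the SNARE gene Snap25 at -0.20 ± 0.11 (adjusted p = 0.21) and -0.03 ± 0.11. Nsf, whose ATPase takes spent SNARE complexes apart, read 13.33 and 13.44 in untreated brain, 13.34 and 13.27 contralaterally and 13.26 and 13.11 ipsilaterally at 48 h, and 13.07 and 13.02 contralaterally and 13.23 and 13.23 ipsilaterally at 72 h. Ipsilateral arrays lay among the others, and the lowest arrays were the contralateral ones of the 72 h protocol. The differences of Nsf were -0.12 ± 0.11 (adjusted p = 0.47) and 0.18 ± 0.11 (adjusted p = 0.30), the highest of the presynaptic genes at 72 h. Over the 6 genes of fusion and active zone, 3 were lower at 48 h (median -0.35) and 0 at 72 h (median -0.14). The neurexin gene Nrxn3, the presynaptic adhesion gene of the list, was at 0.02 ± 0.12 and -0.24 ± 0.12 with its brightest probe, neither past the threshold.

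Of the 10 genes of the vesicle itself that were measured, 1 was lower at 48 h (median -0.24) and 0 at 72 h (median -0.12). These counts lie near the shares of all genes that were lower, 8.06% and 4.13%. The gene that passed was Syt1, the calcium sensor of fast release, which read 13.35 and 13.33 in untreated brain, 13.53 and 13.45 contralaterally and 13.09 and 13.21 ipsilaterally at 48 h, and 13.40 and 13.42 contralaterally and 13.20 and 13.15 ipsilaterally at 72 h. All ipsilateral arrays lay below all others within a narrow range, and the differences were -0.34 ± 0.11 (adjusted p = 0.0478) and -0.23 ± 0.11 (adjusted p = 0.18). Rab3a, a GTPase that guides vesicles to the active zone, read 8.99 and 8.97 on the contralateral and 8.46 and 8.82 on the ipsilateral arrays of the 48 h protocol, 9.12 and 9.19 contralaterally and 8.88 and 8.76 ipsilaterally under the 72 h protocol, and 9.04 and 8.82 in untreated tissue. WT ipsilateral tissue at 48 h was lowest, and KO untreated brain lay below WT ipsilateral tissue at 72 h. The differences of -0.34 ± 0.14 (adjusted p = 0.12) and -0.33 ± 0.14 (adjusted p = 0.15) did not pass. The estimates of the other vesicle genes at 48 h and 72 h were -0.27 ± 0.13 and -0.22 ± 0.13 for Syn1, and -0.09 ± 0.16 and -0.03 ± 0.16 for Syn2, both synapsins. The abundant membrane protein gene Syp was at -0.31 ± 0.14 and -0.11 ± 0.14, and Sv2a and Sv2b, which encode vesicle glycoproteins, were at -0.12 ± 0.12 and -0.13 ± 0.11 at 48 h and 0.01 ± 0.12 and -0.13 ± 0.11 at 72 h. The vesicle SNARE genes Vamp1 and Vamp2 were at -0.32 ± 0.12 and -0.21 ± 0.13 at 48 h and -0.01 ± 0.12 and -0.21 ± 0.13 at 72 h, and Syt4 was at -0.03 ± 0.12 and 0.01 ± 0.12.

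The vesicular glutamate transporters mark different glutamatergic neurons, Slc17a7 mainly those of cortex and hippocampus and Slc17a6 mainly those of thalamus and brain stem. Slc17a7 read 11.08 and 10.72 ipsilaterally against 11.33 and 11.35 contralaterally at 48 h, 11.48 and 10.88 against 11.48 and 11.36 at 72 h, and 11.25 and 11.24 without treatment. Both WT arrays of the 72 h protocol were the highest and both KO ipsilateral arrays were the lowest. The differences of -0.44 ± 0.16 (adjusted p = 0.0709) and -0.24 ± 0.16 (adjusted p = 0.35) did not pass. Slc17a6 read 11.39 and 11.62 in untreated brain, 11.78 and 11.67 contralaterally and 11.56 and 11.72 ipsilaterally at 48 h, and 11.22 and 11.47 contralaterally and 11.61 and 11.35 ipsilaterally at 72 h. Ipsilateral and other arrays were mixed, and the differences were -0.08 ± 0.14 (adjusted p = 0.72) and 0.13 ± 0.14 (adjusted p = 0.58).

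Both genes that belong to neither side passed once. Ntrk2 encodes TrkB, the receptor of brain-derived neurotrophic factor, which glia express too, and read 7.71 and 7.60 on the contralateral and 6.97 and 7.06 on the ipsilateral arrays of the 48 h protocol, 7.16 and 7.79 contralaterally and 7.02 and 7.15 ipsilaterally under the 72 h protocol, and 7.92 and 7.82 in untreated tissue. All 4 ipsilateral arrays lay below the others, WT contralateral tissue at 72 h being the nearest. The differences were -0.64 ± 0.17 (adjusted p = 0.0276) and -0.39 ± 0.17 (adjusted p = 0.16). Slc12a5 encodes the neuronal chloride extruder KCC2 and read 5.52 and 5.38 ipsilaterally against 5.43 and 5.45 contralaterally at 48 h, 5.47 and 5.08 against 5.84 and 5.85 at 72 h, and 5.52 and 5.41 without treatment. At 72 h both contralateral arrays and 0 ipsilateral arrays were above background. The bound of 1.49-fold lower ipsilaterally (adjusted p = 0.0126 by limma) used the ipsilateral readings themselves, so it equals the fitted estimate. Single pairs differed by -0.38 in WT and -0.78 in KO. At 48 h both ipsilateral arrays and 0 contralateral arrays were above background. The bound of 1.01-fold higher ipsilaterally (adjusted p = 0.96 by limma) was again the fitted estimate. The pairs went in opposite directions there, 0.09 in WT and -0.06 in KO.

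**Figure D3:**
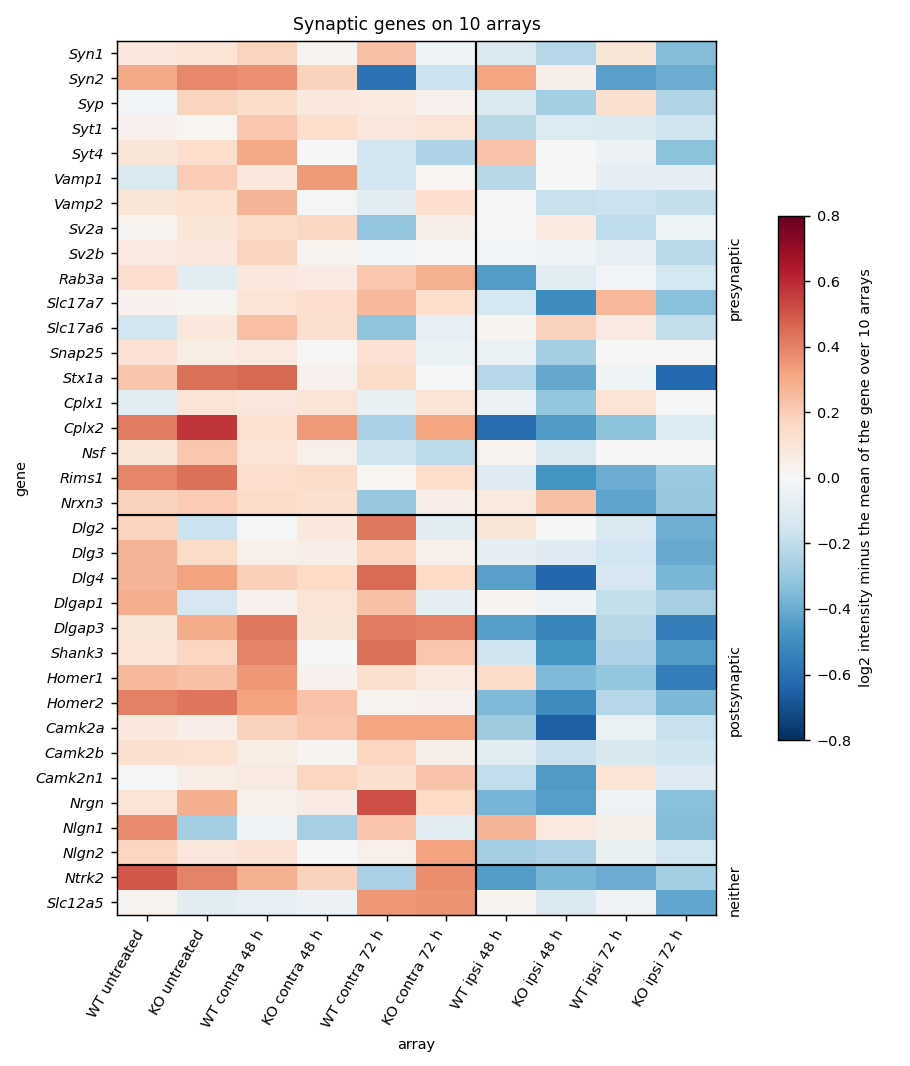
Log2 intensity of each of the 35 genes (rows) on each of the 10 arrays (columns), shown as the difference from the mean of that gene over all arrays, with red above and blue below it and the ipsilateral arrays right of the vertical line. The postsynaptic block is blue on most ipsilateral arrays, and the presynaptic block is paler; the shades are after quantile normalization.

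The groups were also compared without a model. All 4 ipsilateral arrays lay below all 6 other arrays for 14 of the 35 genes (40%), for 9 of 14 postsynaptic genes (64.3%) and for 4 of 19 presynaptic genes (21.1%), against 8.83% of all genes. Ipsilateral tissue was below contralateral tissue in all 4 pairs of arrays for 12 of 14 postsynaptic and 8 of 19 presynaptic genes, against 27.4% of all genes. The mean log2 intensity over the 14 postsynaptic genes was 9.89 to 10.09 on the ipsilateral arrays and 10.29 to 10.48 on the others. Over the 19 presynaptic genes it was 11.26 to 11.38 on the ipsilateral arrays and 11.40 to 11.65 on the others. Neither pair of ranges overlapped, although the gap between the presynaptic ranges was narrow, with WT contralateral tissue at 72 h at the lower edge.

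The median of the presynaptic genes stood above that of the postsynaptic genes by 0.11 at 48 h (0.09 in WT and 0.19 in KO) and by 0.27 at 72 h (0.36 in WT and 0.20 in KO). These differences of medians carry no test, since the genes were chosen with results of these data known. At 48 h leaving out single arrays moved the value between 0.04 (without WT contralateral tissue of that protocol) and 0.18 (without WT ipsilateral tissue), and at 72 h between 0.19 and 0.33. Presynaptic probes were brighter, with a median of 12.04 against 10.04 log2 units, and 10 of 19 presynaptic but 3 of 14 postsynaptic probes lay above 12. Probe brightness and the difference at 72 h were related over the 35 genes (Spearman rho 0.59, and 0.17 at 48 h), while over all 9352 genes rho was -0.07 at 72 h and -0.11 at 48 h. With the sign of the difference set aside, rho over all 9352 genes was -0.17 at 72 h and -0.18 at 48 h, so brighter probes had slightly smaller differences. These values describe genes that share their arrays. Between 9 and 12 log2 units, a range chosen after seeing the data, 1 of 7 presynaptic and 5 of 9 postsynaptic genes were lower at 48 h, and 0 and 6 at 72 h. In that range the medians were -0.09 and -0.46 at 48 h and -0.03 and -0.43 at 72 h, a distance of 0.37 and 0.40.

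**Figure D4:**
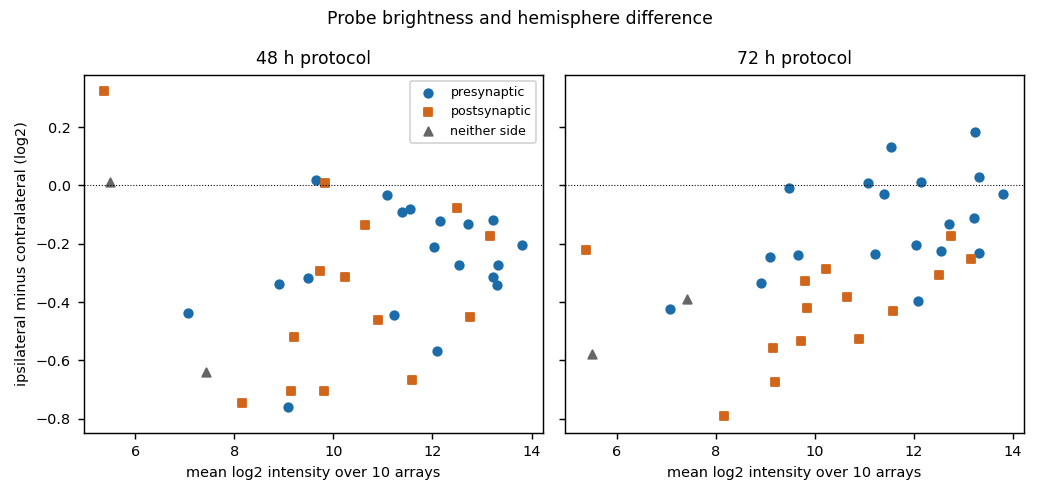
Fitted ipsilateral minus contralateral log2 difference (vertical axis) against mean log2 intensity over 10 arrays (horizontal axis) of the 35 genes in the 48 h protocol (left) and the 72 h protocol (right), presynaptic genes as circles, postsynaptic as squares and the others as triangles. Presynaptic genes have a median brightness of 12.04 and postsynaptic genes of 10.04, and between 9 and 12 the median of the postsynaptic points is lower in both protocols; under median centring all values at 48 h lie higher.

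Synaptic genes outside the list were read from wider lists drawn up for this comparison. Their counts stand beside 8.06% of all genes lower and 12.7% higher at 48 h, and 4.13% lower and 10.3% higher at 72 h. Of 32 other presynaptic genes measured, 7 were lower at 48 h and 4 at 72 h, with 0 higher, and medians of -0.26 and -0.30. Among them Cadps2, which primes dense-core vesicles, was at -0.77 ± 0.17 (adjusted p = 0.012) and -0.50 ± 0.17 (adjusted p = 0.0746), the calcium sensor gene Doc2b at -0.40 ± 0.18 (adjusted p = 0.13) and -0.85 ± 0.18 (adjusted p = 0.0101), and the vesicle protein gene Synpr at -0.90 ± 0.15 (adjusted p = 0.00334) and -0.24 ± 0.15 (adjusted p = 0.32). Dnm1, the gene of the GTPase that pinches off endocytic vesicles, was at -0.61 ± 0.13 (adjusted p = 0.0116) and -0.36 ± 0.13 (adjusted p = 0.10). Of 20 other postsynaptic genes, 3 were lower and 2 higher at 48 h, and 5 lower and 1 higher at 72 h, with medians of -0.18 and -0.34. The calcineurin genes Ppp3r1 and Ppp3ca were at -0.71 ± 0.12 (adjusted p = 0.00276) and -0.41 ± 0.13 (adjusted p = 0.0482) at 48 h and -0.33 ± 0.12 (adjusted p = 0.0876) and -0.49 ± 0.13 (adjusted p = 0.0299) at 72 h.

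Against that direction, Synpo, which encodes an actin-binding protein of the spine apparatus and of cells outside the brain, was higher by 1.97 ± 0.16 (adjusted p = 7.36e-05) and 1.71 ± 0.16 (adjusted p = 6.91e-05). Homer3, the other gene counted as higher at 48 h, stood above background on the 4 ipsilateral arrays and on 0 others. It was kept through the side where it is high, so no difference or test of it is given, and without it 1 of 19 other postsynaptic genes was higher at 48 h. Taking listed and other genes together, the presynaptic median was -0.26 over 51 genes and the postsynaptic median -0.23 over 34 genes at 48 h, with 11 and 10 genes lower. At 72 h the medians were -0.24 and -0.36, with 4 and 12 genes lower. Under median centring the wider medians were 0.15 and 0.22 at 48 h, beside 0.43 over all genes, and -0.14 and -0.25 at 72 h. The distance between the sides seen in the 39 genes was thus not present in the medians of the wider lists at 48 h, and was smaller at 72 h. Of 15 genes of neuronal cytoskeleton and cell body, 2 were lower in each protocol, against 8.06% and 4.13% of all genes. Their medians were -0.16 and -0.20, and the neuronal nuclear protein gene Rbfox3 was at -0.53 ± 0.12 (adjusted p = 0.0158 by limma) and -0.44 ± 0.12 (adjusted p = 0.0418).

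**Figure D5:**
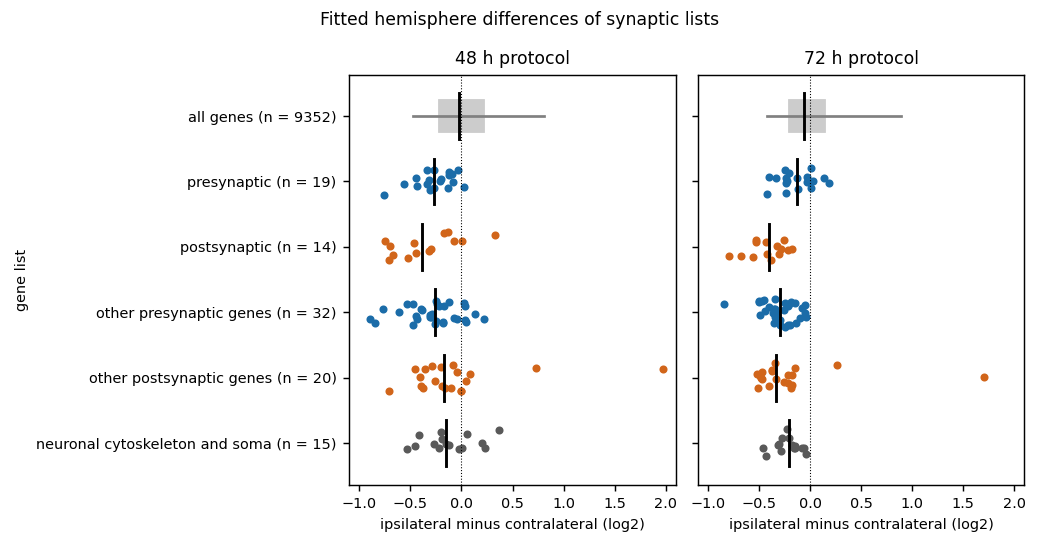
Fitted ipsilateral minus contralateral log2 differences of the genes of 5 lists (1 point per gene, black bar at the median) beside all 9352 genes (box from the 25th to the 75th percentile, line from the 5th to the 95th), in the 48 h protocol (left) and the 72 h protocol (right). Medians of the synaptic lists lie below that of all genes in both protocols; under median centring, where the median of all genes at 48 h is 0.43, those of all 5 lists lie above 0 at 48 h. The far right point among the other postsynaptic genes is Synpo.

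Markers of other cell types moved with the hemisphere. Over all genes 12.7% were higher and 8.06% lower at 48 h, and 10.3% were higher and 4.13% lower at 72 h. All 8 measured markers of microglia and phagocytes were higher in both protocols (7 of 7 without Ctss, above background on ipsilateral arrays only), with medians of 1.23 and 1.87, and their mean log2 level was 8.88 to 9.89 on ipsilateral, 7.18 to 7.69 on contralateral and 6.91 to 6.98 on untreated arrays. P2ry12, Csf1r, Itgam and Cd68 were not measured. Of 9 astrocyte markers, 4 were higher in each protocol and 1 was lower at 48 h, and their mean level was 11.21 to 11.31 ipsilaterally against 10.51 to 10.74 contralaterally and 10.42 to 10.45 without treatment. Endothelial markers were higher in 5 of 8 cases in each protocol, with 1 lower at 48 h and mean levels of 8.53 to 9.16 ipsilaterally against 7.98 to 8.22 contralaterally and 7.95 to 7.98 without treatment. Oligodendrocyte markers were higher in 3 of 7 and 4 of 7 cases, at 11.08 to 11.40 ipsilaterally against 10.75 to 10.98 contralaterally and 10.90 to 11.16 without treatment. The mean of the 15 genes of neuronal cytoskeleton and cell body was 9.88 to 10.06 ipsilaterally, 10.10 to 10.21 contralaterally and 10.12 to 10.15 without treatment. The part of these cell types in the synaptic differences was not tested.

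Other probes of the same genes were read where they stood above background, with p-values adjusted over all named probes. A further Camk2a probe gave -0.67 ± 0.12 at 48 h and -0.55 ± 0.12 at 72 h (adjusted p = 0.00613 and 0.0165), while the brightest one had an adjusted p of 0.0578 at 72 h on this footing. Adjusted over all named probes, the brightest probes of 9 of the 12 genes kept their call at 48 h and those of 6 of the 8 at 72 h. The calls of Nrgn, Rims1 and Syt1 at 48 h were lost (adjusted p = 0.0545 to 0.059), as were those of Camk2a and Dlg3 at 72 h (adjusted p = 0.0578 and 0.0604). The other Dlg4 probe gave -0.59 ± 0.15 and -0.71 ± 0.15 (adjusted p = 0.028 and 0.0138). The other probe of the same Homer1 transcript record gave -0.46 ± 0.12 in both protocols (adjusted p = 0.0297 and 0.0384), so it passed at 48 h where the brightest probe did not. Further probes of other called genes did not pass at 48 h by limma. These gave -0.20 ± 0.15 for Rims1 (adjusted p = 0.38) and -0.58 ± 0.20 for Ntrk2 (adjusted p = 0.0752). For Syt1 they gave -0.30 ± 0.15 and -0.13 ± 0.25 (adjusted p = 0.19 and 0.74). A dim Homer1 probe on another record gave -0.24 ± 0.26 at 72 h (adjusted p = 0.60). Probes disagreed for Dlgap1, whose brightest probe did not pass while a dimmer probe on another transcript record gave -0.76 ± 0.15 at 48 h (adjusted p = 0.00837). A dim Nrxn3 probe passed at 48 h with -0.46 ± 0.13 (adjusted p = 0.0369), and a dim Nsf probe on another record passed at 72 h with -0.43 ± 0.12 (adjusted p = 0.0456), in contrast to the brightest probes of these genes.

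The change of the hemisphere difference between protocols passed for 0 of the 35 genes and for 0% of all 9352 genes by limma, with 4 of the 35 and 1018 of all genes at an unadjusted p under 0.05. The 4 were Cplx2, Homer2, Slc12a5 and Nlgn1. Of these, Nlgn1 is not read further, since it was kept through the ipsilateral arrays of the 48 h protocol alone. The median change, 48 h minus 72 h, was -0.13 over the presynaptic genes and 0.07 over the postsynaptic genes. That a presynaptic gene passed at 48 h and not at 72 h is therefore not shown to be a difference between protocols.

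Ipsilateral tissue of both protocols was set against untreated brain, using the same ipsilateral arrays as above. Of the 35 genes, 13 were lower and 0 higher, against 12.4% of all genes lower, 16.6% higher and 29.1% in either direction. On the postsynaptic side 8 of 14 were lower (median -0.38), namely Homer2 at -0.78 ± 0.09 (adjusted p = 0.000221), Dlg4 at -0.69 ± 0.10 (adjusted p = 0.000949), Dlgap3 at -0.63 ± 0.12 (adjusted p = 0.00443) and, between -0.36 and -0.52, Homer1, Nrgn, Shank3, Dlg3 and Camk2a. On the presynaptic side 4 of 19 were lower (median -0.20). These were Cplx2 at -0.87 ± 0.11 (adjusted p = 0.000346), Rims1 at -0.73 ± 0.12 (adjusted p = 0.00148), Stx1a at -0.66 ± 0.15 (adjusted p = 0.00886) and Syn2 at -0.46 ± 0.14 (adjusted p = 0.0309), and Ntrk2 was at -0.82 ± 0.15 (adjusted p = 0.00263). Syn2 had not passed in a hemisphere comparison. It read 11.70 and 11.44 ipsilaterally against 11.75 and 11.57 contralaterally at 48 h, 10.95 and 10.99 against 10.79 and 11.21 at 72 h, and 11.69 and 11.77 without treatment, so that all 4 arrays of the 72 h protocol, contralateral tissue included, were lower than the rest. Without the KO untreated array the postsynaptic and presynaptic medians were -0.34 and -0.14. Under median centring they were 0.03 and 0.18 beside 0.39 over all genes. There Cplx2 and Homer2 were lower and Slc17a6 was higher, against 111 lower and 5120 higher of all 9352 genes.

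Contralateral tissue differed from untreated brain for 0 of the 35 genes by limma, against 1.43% of all genes that passed, 1.2% higher and 0.235% lower. At an unadjusted p under 0.05 were 4 of the 35 and 1452 of all 9352 genes. Medians were -0.03 over the presynaptic and -0.01 over the postsynaptic genes, beside 0.02 over all genes. The widest estimates were -0.40 ± 0.14 (adjusted p = 0.20) for Syn2 and -0.36 ± 0.11 (adjusted p = 0.16) for Cplx2. A difference that did not pass with 2 untreated arrays does not show that the levels were alike.

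KO and WT differed for 0 of the 35 genes, against 1.17% of all genes that passed, 0.535% higher and 0.631% lower. At an unadjusted p under 0.05 by limma were 8 of the 35 and 1671 of all 9352 genes. Estimates were below 0 for 13 of 14 postsynaptic genes, with a median of -0.10, and for 12 of 19 presynaptic genes, with a median of -0.02. Over all 9352 genes 4809 were below 0, with a median of -0.01. The widest were -0.35 ± 0.08 (adjusted p = 0.0823) for Nlgn1, which was mostly below background, and 0.26 ± 0.08 (adjusted p = 0.15) for Cplx2. Snap25 and Slc12a5 lie on chromosome 2 as Cd93 does, and were at -0.10 ± 0.07 and -0.12 ± 0.08. The genotype-by-ipsilateral term, the change of the KO minus WT difference in ipsilateral tissue, passed for 0 of the 35 genes and for 0% of all genes, with 2 of the 35 and 359 of all genes at an unadjusted p under 0.05. Those were Slc17a7 at -0.44 ± 0.15 (adjusted p = 0.998) and Camk2n1 at -0.33 ± 0.14 (adjusted p = 0.998), whose ipsilateral differences were steeper in KO than in WT in both protocols. At 72 h the presynaptic median was -0.04 in WT and -0.26 in KO, and the postsynaptic median -0.40 and -0.46, each from 1 pair of arrays.

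How firmly single genes were called depended on single arrays, where the remaining array of a group is assumed to vary like the other groups. At 48 h the count of 12 fell to 2 without KO ipsilateral tissue, 4 without WT contralateral, 5 without WT ipsilateral and 6 without KO contralateral tissue of that protocol. Dlg4 and Homer2 passed whichever array was left out, Cplx2 was lost without KO ipsilateral tissue of the 48 h protocol, and Syt1 was lost whichever of the 10 arrays was left out, as was Rims1 in 9 cases. Stx1a and Nrgn were each lost in 6 cases, Camk2n1 in 4, Dlgap3, Shank3 and Ntrk2 in 3 and Camk2a in 2. At 72 h the count of 8 fell to 0 without KO ipsilateral tissue, to 4 without KO contralateral or WT ipsilateral and to 5 without WT contralateral tissue. Dlgap3 and Shank3 were lost only without KO ipsilateral tissue of the 72 h protocol, Dlg4 and Slc12a5 in 2 cases, Homer1 in 3, Nrgn in 5, Camk2a in 8 and Dlg3 in all 10. In no case did an estimate of a called gene change sign. The number of lower genes among all 9352 fell as well whenever an array of the compared protocol was left out. These falls are therefore not particular to the listed genes.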

How the data were processed

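RNA of 10 mouse brain samples was extracted with Trizol, amplified, biotin-labelled and hybridised to bead arrays, per the labels' protocols. Per the file headers, the deposited non-normalized table holds 1 linear bead intensity and 1 detection p-value per probe and array. The detection value rises with intensity on every array, so 1 minus it was taken as p. The authors' value table holds linear intensity that was quantile-normalized within pairs of arrays, as its sorted values show, and served as an alternative only. The software is not given in the sources used here, and 0 sample columns stayed unused.

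Intensities were background-corrected (limma 3.58.1 nec in R 4.3.3, inferred negative controls, offset 16), then quantile-normalized between arrays, and log2 values were used. A probe of 1 gene entered where its detection p was under 0.01 on 2 or more arrays, and the brightest stood for each of 9352 genes. Names and chromosomes came from RefSeq (GRCm38.p6), matched for 29746 of 29800 probes with a single gene symbol. An additive model of 5 conditions and genotype left 4 residual degrees of freedom, and 3 when a genotype-by-ipsilateral term was added. P-values were adjusted by Benjamini-Hochberg at a threshold of 0.05. A fold against a side with no array above background is printed as a lower bound, against the lowest detected level or the probe's own value, whichever was higher, and no hemisphere difference is printed for a gene that was kept only through the side where it is high. The fit was tested on simulated data with independent noise of equal spread and no genotype effect or pairing, so that test does not cover these features of the design. Members and lists were chosen with earlier results of these data known. Values in every array are given for members past the threshold in a hemisphere comparison, and for the 2 highest and 2 lowest others of each side, and of the wider lists at most 4 genes with the widest mean difference are named. Alternatives were another background correction, normalization, source table, detection filter, variance prior, probe rule and model, leaving out single arrays, and a block for each pair of hemispheres.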

Additional observations from a re-analysis of the deposited data

How the results depend on the processing

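The number of arrays limits the precision, and the bounds of Slc12a5, a gene near background, are no firmer than its fitted estimates. Counts of listed genes lower ipsilaterally at 48 h (12) became 0 under median centring, 7 without a detection filter and 7 with genotype left out of the model, and ranged from 2 to 10 with single arrays left out. At 72 h the count of 8 became 2 under median centring, 4 with the authors' value table and 4 with genotype left out, and ranged from 0 to 7 with single arrays left out. Against untreated brain the count of 13, all lower, became 3 in either direction under median centring (2 lower and 1 higher), reached 17 with a variance trend and 19 with the mean of all detected probes, and ranged from 5 to 15 with single arrays left out. Median centring also turned the sign of Nrgn (0.0022) and Rims1 (0.0456) at 48 h and of Camk2a (0.0427) and Dlg3 (0.0204) against untreated brain. Over all genes at 48 h, 1185 were higher and 754 lower, and under median centring 4882 and 43. The cause was not tested. The distance between presynaptic and postsynaptic medians at 48 h was 0.11, 0.18 with detection on all 10 arrays, 0.37 between 9 and 12 log2 units (chosen after seeing the data) and 0.0391 to 0.1836 with single arrays left out. At 72 h it was 0.27, 0.40 in that brightness range and 0.19 to 0.33. The 4 comparisons in which 0 listed genes passed (protocols, contralateral against untreated, genotype, and genotype by ipsilateral) stayed at 0 under every alternative run. The authors' table could not serve for comparisons with untreated brain or between genotypes, since its pairs of arrays are not on a common scale. A paired fit, chosen after seeing the data, took the 4 pairs of hemispheres of a genotype and protocol as a replicate block over the 8 occluded arrays, with 2 residual degrees of freedom. The labels do not say that both hemispheres of a pair came from the same mice. It called 14 listed genes lower at 48 h, the 12 among them, and 10 at 72 h, the 8 among them, while over all genes 1277 and 783 were lower in place of 754 and 386. The presynaptic gene Rims1 was among the 10, and so was lower in both protocols under this fit. A fit on only the 4 arrays of the 72 h protocol also called 1 presynaptic gene lower. The presynaptic count of 0 at 72 h thus did not hold under every alternative.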
